A study of Mus musculus with 6 samples.

Results

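Venous endothelial cells line the venules and veins that drain the brain. Here they were the cells of mouse hypothalamus in which transcripts typical of endothelium and of venous vessels were counted together, and there were 145 of them among 13994 cell barcodes. A cell had to have at least 300 detected genes and at most 20% of its unique molecular identifiers (UMIs, one per captured transcript) in mitochondrial genes, which 9449 cells did. It had to hold at least 3 UMIs over Cldn5, Flt1, Ly6c1, Pecam1, Itm2a and Ptprb and at most 1 UMI over Snap25, Syt1, Kcnj8, Acta2, C1qa and Mog, genes of neurons, mural cells, microglia and oligodendrocytes, and 993 cells met this. Venous cells were those with at least 1 UMI of Vwf, Slc38a5 or Tmem252 and 0 UMIs of Sema3g, Bmx, Edn1 and Gkn3. The same rule left 581 endothelial cells with no UMI of either set, called capillary below, and 201 with arterial UMIs only. A further 66 cells with both kinds of UMI belonged to no class.

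The hypothalamus came from C57BL/6J mice aged 8 weeks and was profiled by Drop-seq, which captures single cells with barcoded beads in droplets and reads the 3′ ends of their transcripts. There were 3 wild-type libraries (WT1 to WT3) and 3 libraries labelled as IDOL knockouts (KO1 to KO3). IDOL is the ubiquitin ligase encoded by Mylip (chr13:45389742-45412022), which marks lipoprotein receptors such as VLDLR and ApoER2 for degradation. The labels gave neither the deleted part of Mylip nor whether each library was its own animal, so the p-values below measure the spread between libraries, and genotypes were mixed over days of preparation that were not given per library. Passing cells per library numbered 1047 to 1953, with 1538558 to 3705810 UMIs. In the venous cells Mylip had 2 UMIs in WT1, 1 in WT2, 4 in WT3 and 0 in each KO library. Pooled over cells, that is at least 1.52-fold lower in KO, computed against a floor of 3 counts over the group.

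Endothelium changes its gene expression along the vessel tree. Capillary endothelium carries most of the transporters of the blood-brain barrier, arterial endothelium expresses genes of Notch signalling and of the elastic wall, and venules are the main site where leukocytes adhere and leave the blood. Von Willebrand factor (Vwf) is the platelet-binding protein stored in endothelial granules, Slc38a5 is a glutamine transporter of brain venous and capillary endothelium, and Cldn5 is the claudin of the endothelial tight junction. In whole venous classes, fewer cells that express a gene and less RNA per cell cannot be told apart.

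The promoters of the members' defining genes are shown because a UMI of Slc38a5 or Tmem252 alone admitted most members. The windows run from 250 bases before to 50 after the gene start and are from RefSeq on GRCm38.p6. The promoter of Nfkbia, the NF-kB inhibitor whose transcript was higher in venous than in capillary cells of every library, stands with them. Slc38a5 lies at chrX:8271131-8271430 on the plus strand, Tmem252 at chr19:24673758-24674057 on the plus strand and Nfkbia at chr12:55492598-55492897 on the minus strand. Capitals mark matches to an NF-kB motif, GGGA and CC set apart by any 4 bases, searched on both strands.
Slc38a5: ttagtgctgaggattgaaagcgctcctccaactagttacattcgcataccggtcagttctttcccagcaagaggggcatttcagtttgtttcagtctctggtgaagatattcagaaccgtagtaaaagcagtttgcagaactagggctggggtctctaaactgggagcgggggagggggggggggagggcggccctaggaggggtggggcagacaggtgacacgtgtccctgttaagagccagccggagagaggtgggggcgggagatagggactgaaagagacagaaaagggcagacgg
Tmem252: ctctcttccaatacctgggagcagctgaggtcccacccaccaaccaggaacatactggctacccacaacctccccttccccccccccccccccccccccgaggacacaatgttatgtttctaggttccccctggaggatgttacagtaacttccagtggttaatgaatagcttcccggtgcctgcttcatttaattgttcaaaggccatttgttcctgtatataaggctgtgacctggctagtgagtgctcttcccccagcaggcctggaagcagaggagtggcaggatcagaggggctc
Nfkbia: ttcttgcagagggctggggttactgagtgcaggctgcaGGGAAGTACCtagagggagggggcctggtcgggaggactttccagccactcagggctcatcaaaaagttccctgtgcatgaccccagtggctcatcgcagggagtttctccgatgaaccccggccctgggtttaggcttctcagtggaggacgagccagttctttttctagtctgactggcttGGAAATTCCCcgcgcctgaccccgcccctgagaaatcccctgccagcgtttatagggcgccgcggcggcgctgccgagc
The Nfkbia window held 2 matches and the Slc38a5 and Tmem252 windows none. The windows of Fosb and Atf3, not shown, held 2 and 1 matches, and that of Icam1 none. Of 32851 RefSeq promoters of the same length, 20.7% held at least 1 match. The AP-1 motif TGANTCA and the cAMP response motif TGACGTCA, which 7.81% and 1.79% of promoters held, were in none of these windows nor in those of Fosb and Atf3. These are matches of letters, not measured binding.

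The members were shallow and rested on few venous UMIs. Their median was 781 UMIs and 580 genes per cell, against 617 UMIs and 458 genes in capillary and 759 UMIs and 537 genes in arterial cells. Vwf had a UMI in 57 members, Slc38a5 in 63 and Tmem252 in 57. Vwf alone admitted 36 members, Slc38a5 alone 40 and Tmem252 alone 42, while all 3 genes were counted together in 5. Exactly 1 venous UMI was found in 98 members, 2 in 31 and 3 or more in 16. Members were chosen by these UMI counts, so the counts describe the rule and are not evidence for it. A KO3 cell stood apart with 33 venous UMIs, of which 22 were Vwf, in 5442 UMIs.

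At least 3 of the 6 endothelial genes of the rule were detected in 139 of the 145 members, and Cldn5 in 65, which describes the rule and checks nothing. The venous genes were also counted in cells with no endothelial UMI. Any of the 3 venous genes had a UMI in 21.2% of endothelial cells (median 692 UMIs) and in 0.208% of 7701 cells with no endothelial UMI (median 887 UMIs). After thinning to 500 UMIs per cell the shares were 13.0% and 0.0763%. The shares were thus higher in endothelial cells as a whole. The other cells were chosen to hold no endothelial UMI, so the contrast cannot measure free RNA of endothelium. A capillary cell can carry 1 such UMI and a venous cell none. At the edges of the rule, 3 members had exactly 3 endothelial UMIs and 1 cell outside had 2, while 20 members had under 350 genes and 16 cells outside had 250 or more but under 300. A single arterial UMI kept out 31 cells. Scrublet called 2 members doublets, both in WT1, and no barcode sequence of a member recurred in another library.

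Some members carried more UMIs of other cell types than of the 6 endothelial genes. Pericyte markers exceeded them in 4 members, oligodendrocyte markers in 5 and haemoglobin in 6. At least 3 pericyte marker UMIs were found in 47 members (32.4%) and at least 3 oligodendrocyte marker UMIs in 65 (44.8%). There were 3 large cells that also stood apart by a low share of endothelial UMIs. The WT3 cell had 59075 UMIs, of which 7 were endothelial and 905 were from 4 ependymal markers, and it held 76.1% of all UMIs in the venous cells of its library. The WT1 cell had 18787 UMIs, with 3 endothelial UMIs and 129 from astrocyte, 98 from tanycyte and 79 from neuron markers, and held 41.8% of all UMIs in the venous cells of WT1. The KO3 cell had 5743 UMIs, with 7 endothelial UMIs that were all Itm2a. All 3 had less than 0.3% of UMIs in the endothelial genes, and the other 142 members lay above that line. Together the 3 cells held 35.3% of all UMIs in venous cells, with 1 UMI each of Vwf or Tmem252. The same line left out 46 capillary cells, which held 50.5% of the capillary UMIs, and no arterial cell. This line was chosen after the cells were seen. Values below are therefore given for all 145 members with the test, and per library for the 142 cells (153130 UMIs) against 535 capillary (389038 UMIs) and 201 arterial cells (199676 UMIs), with levels and folds but no adjusted p.

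**Figure D1:**
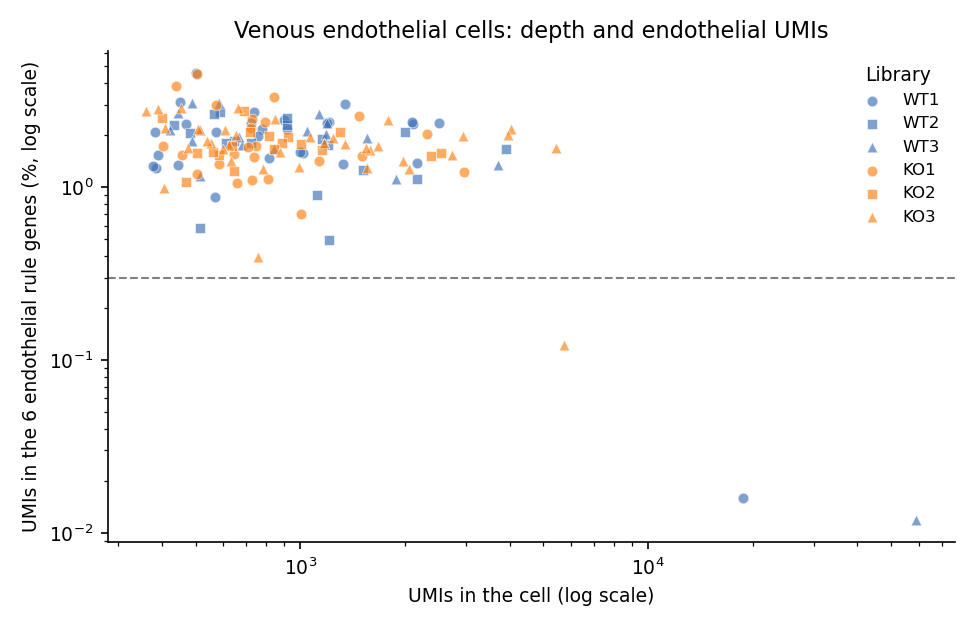
Each point is a venous cell, placed by its UMIs (x axis, log scale) and by the percentage of them in the 6 endothelial genes of the rule (y axis, log scale), with colour and shape for the library. The dashed line is 0.3%, and the 3 cells below it have 5743, 18787 and 59075 UMIs.

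The share of venous cells in the endothelium did not differ between the genotypes beyond the spread of the libraries. WT1, WT2 and WT3 held 28, 18 and 19 of them, and KO1, KO2 and KO3 held 24, 18 and 38. Their share of endothelial cells was 20.3%, 18.0% and 14.4% in WT and 17.5%, 10.9% and 11.8% in KO, and the groups overlapped. The means were 17.6 ± 2.97% and 13.4 ± 3.58% (SD, n = 3 libraries each), and a two-sided exact permutation test gave p = 0.2, where 3 against 3 libraries allow no p below 0.1. As a share of all passing cells the means were 1.61 ± 0.126% and 1.50 ± 0.506% (exact permutation p = 0.8, n = 3 each). The median UMIs per venous cell averaged 850.0 ± 60.4 for WT and 786 ± 69.4 for KO (p = 0.3 by the exact permutation test, n = 3 each).

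**Figure D2:**
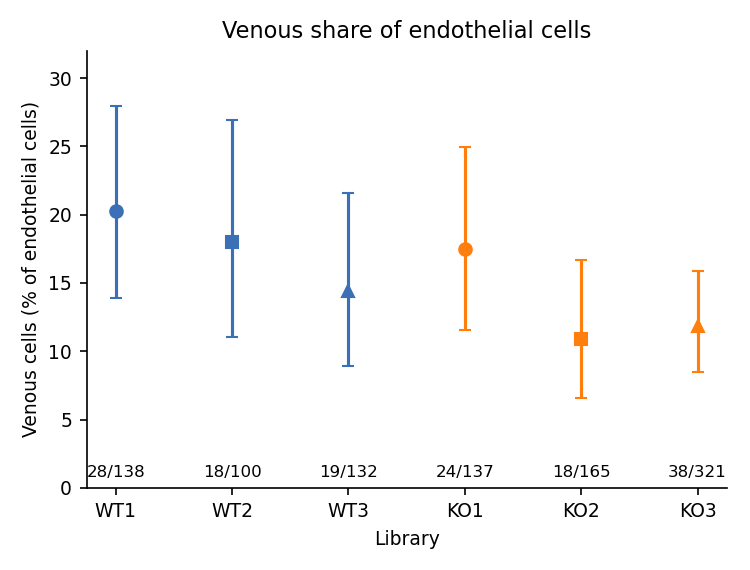
Venous cells as a percentage of endothelial cells in each library (y axis), with exact 95% binomial intervals that cover counting error only and the counts written below the points. The WT libraries lie between 14.4% and 20.3% and the KO libraries between 10.9% and 17.5%.

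Against capillary cells, Fosb, Apold1 and the NF-kB inhibitor Nfkbia rose and Cst3 and Apoe fell with cells thinned to the same depth, but none of these passed over all members. Over all 145 members, 0 genes were higher and 3 lower of 957 tested (0.313% called; edgeR quasi-likelihood test with the library as a block, adjusted p below 0.05), with 74 genes at an unadjusted p below 0.05. DESeq2 called 3 higher and 8 lower (1.15%). Thinning each cell to 500 UMIs gives the large cells no more weight than others, but leaves out cells under 500 UMIs. Of the 142 venous and 535 capillary cells above the 0.3% line, 118 and 360 were kept. The part of this unequal trimming in the thinned calls was not tested. With thinned cells 3 genes were higher and 5 lower of 206 (3.88%). With cells that held 0 UMIs of the other types' rule genes it was 61 higher and 51 lower of 765 (14.6%). With members of at least 2 venous UMIs it was 27 in each direction of 555 (9.73%). Without WT3 the count was 72 higher and 65 lower (14.1%), and without the called doublets it was 0. The choice of 0 UMIs of other types took the WT3 venous sum from 77589 to 12411 UMIs, while the large WT1 venous cell stayed. The capillary sums stayed at 162314 of 222842 UMIs in WT1 and 134095 of 139252 in KO2, where the 0.3% line left 59372 and 63799. In WT3 alone the capillary sum was below that line's, at 41997 against 44438. The classes were thus not trimmed alike, and the part of this in that choice's calls was not tested.

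Fosb, a Fos-family subunit of the AP-1 factor, had 880.5, 1597 and 594 CPM (UMIs scaled to the same total in each sum) in the WT venous sums and 1274, 1699.7 and 2050.2 in KO. The capillary sums of the same libraries had 269, 679.6 and 135 CPM and 656, 549 and 1042 CPM. Venous cells were higher in 6 of 6 libraries, although the ranges overlapped across libraries. The log2 fold change was 1.26 ± 0.22 (SE) with thinned cells (adjusted p = 0.0032, edgeR) and 1.00 ± 0.34 over all members (adjusted p = 0.47). Atf3, a stress-induced factor of the ATF family, had 804, 871 and 270.1 CPM in WT venous and 1319, 1876 and 1230.1 CPM in KO venous sums. Its capillary values were 185, 473 and 22.5 CPM in WT and 497, 564 and 299 CPM in KO. Each library's venous value was more than its capillary value. An Atf3 UMI was found in 29.6% of venous, 12.0% of capillary and 24.4% of arterial cells. In thinned cells the shares were 21.2%, 10.8% and 20.9%, so the share was not particular to venous cells. The log2 fold change of Atf3 was 1.66 ± 0.21 over the 142 cells and 1.45 ± 0.48 over all members (adjusted p = 0.46, edgeR), and Atf3 passed with 0 UMIs of other types at 1.08 ± 0.30 (adjusted p = 0.022).

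Of 18 early response genes in the table, 17 were tested over all members and 0 passed, with 16 positive and a median log2 fold change of 0.53 against -0.01 over all genes tested. With 0 UMIs of other types, Fos, Fosb, Atf3, Klf2, Klf6 and Zfp36 rose of 17 tested, where 61 of all 765 genes rose, against a median of -0.03 over all genes there and 0.64 for the list. With thinned cells Fosb was the list member that passed of 12 tested, where 3 of all 206 genes rose, at a list median of 0.50. Fos, the partner of Jun proteins in AP-1, had a log2 fold change of 0.80 ± 0.13 over the 142 cells and was higher in 6 of 6 libraries. Apold1, an endothelial early response gene outside that list, had 1761, 1935 and 1242 CPM in WT and 1228, 2520.2 and 1927 CPM in KO venous cells. Its capillary values were 1061, 1152 and 585 CPM in WT and 1610.2, 533 and 859.6 CPM in KO. Venous cells were higher in all libraries but KO1, at a log2 fold change of 1.01 ± 0.24 with thinned cells (adjusted p = 0.019, edgeR). The cells had been dissociated before capture, and the part of dissociation in these genes was not tested.

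Nfkbia encodes a protein that holds NF-kB in the cytoplasm, and the gene is itself induced by NF-kB. Its venous values were 3216, 4354 and 4051 CPM in WT and 3138, 2462 and 4141 CPM in KO. A single venous cell held 57 of the 562 Nfkbia UMIs of the 142 cells, so the level of its library rested in part on it. The highest count was 10 in a capillary and 11 in an arterial cell. The capillary values were 2139, 2748 and 2340.3 CPM in WT and 1669.8, 1897 and 2316 CPM in KO. Venous cells were higher in every library, by a log2 fold change of 0.74 ± 0.16 with thinned cells (adjusted p = 0.011, edgeR), 1.18 ± 0.17 with 0 UMIs of other types (adjusted p = 5.4e-05) and 0.88 ± 0.31 over all members (adjusted p = 0.48). An Nfkbia UMI was found in 75.4% of thinned venous, 61.4% of thinned capillary and 67.5% of thinned arterial cells. Arterial cells thus lay between the other classes.

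Other genes known from venous endothelium were sparse, and most did not reach the count filter. Among 19 such genes in the files 4 were tested over all members, with 0 passing and a median log2 fold change of 0.54. Ephb4, the ephrin receptor of veins, had a UMI in 4.23% of the 142 venous cells (median 768.5 UMIs), 5.05% of capillary (median 593 UMIs), 4.48% of arterial cells and 0.0712% of neurons (median 2538 UMIs). In thinned cells the shares were 2.54%, 4.72%, 1.84% and 0.0736%. Flt4, the VEGF-C receptor, had a UMI in 7.04% of venous, 4.11% of capillary and 6.47% of arterial cells and 0.214% of neurons, and in 2.54%, 2.22%, 3.68% and 0% of thinned cells. Neither share stood above both other classes in thinned cells.

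The adhesion molecules and cytokine receptors of venules were counted too rarely for the filter and are given as levels over the 142 cells. Icam1, the ligand of leukocyte integrins, had 38.3, 242 and 270.1 CPM in WT and 364, 117 and 349 CPM in KO, from 1, 5, 5, 8, 2 and 17 UMIs. Capillary cells had 0 to 119 CPM of Icam1 and arterial cells 69.3 CPM in KO3 and 0 in the other libraries. In each library the venous value was the highest of the 3 classes. An Icam1 UMI was found in 9.15% of venous (median 768.5 UMIs), 3.18% of capillary (median 593 UMIs) and 0.498% of arterial cells. It was found in 0.214% of 1405 neurons without an endothelial UMI (median 2538 UMIs), and in 6.78%, 1.94%, 0.613% and 0.0736% of thinned cells. Vcam1, the other main leukocyte adhesion molecule, averaged 146 ± 69.1 CPM in venous, 31.4 ± 41.0 in capillary and 60.3 ± 54.5 in arterial cells (SD, n = 6 libraries). It was above the capillary value in 6 of 6 libraries and above the arterial value in 5. Il1r1, the interleukin 1 receptor, averaged 121 ± 42.1 CPM against 32.2 ± 30.4 in capillary and 16.9 ± 29.1 in arterial cells and was highest in venous cells in each library. No test is given for these levels, since the cells were trimmed after their values were seen.

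Lcn2, lipocalin 2, had 12 UMIs in 6 venous cells, 2 in capillary and 1 in arterial cells. Lrg1, a secreted leucine-rich glycoprotein, had 12 UMIs that were all in KO3. The KO3 cell with 33 venous UMIs held 6 of the Lcn2 and 4 of the Lrg1 UMIs, and also 7 of the 12 UMIs of Ch25h, the cholesterol 25-hydroxylase, and 6 of the 39 of Icam1. Lcn2, Lrg1 and Ch25h levels thus rested in good part on a single cell. Of the 17 Icam1 UMIs of KO3 over the 142 cells, that cell held 6 and another held 10. The KO3 level of Icam1 thus rested mostly on these cells. Nr2f2, the transcription factor that sets venous identity in the embryo, was above its capillary level in 3 of 6 libraries. It had 153, 290.3 and 54.0 CPM in WT and 91.0, 58.6 and 574 CPM in KO venous cells, against 148 to 262 CPM in capillary cells, at a log2 fold change of -0.00 ± 0.35 over all members (adjusted p = 1, edgeR). Selp, the P-selectin stored beside von Willebrand factor, had 0 UMIs in all 142 cells, which allows a share of up to 2.11% of cells with a UMI. Plvap, of fenestrated endothelium, also had 0.

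Cxcl12, a chemokine of capillary and arterial endothelium, was lower in venous cells. It had 1761, 1209 and 1458 CPM in WT and 1092, 703 and 902 CPM in KO venous cells. Capillary cells had 2392, 1832 and 2385 CPM in WT and 2604, 2335 and 2440.3 CPM in KO. Every venous value lay below every capillary value, and the log2 fold change was -1.06 ± 0.16 over the 142 cells. Cxcl12 passed with at least 2 venous UMIs at -1.95 ± 0.36 (adjusted p = 0.00037, edgeR) but not over all members at -0.72 ± 0.34 (adjusted p = 0.65) or with thinned cells at -0.72 ± 0.25 (adjusted p = 0.12).

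Genes of other brain cells were also lower in venous than in capillary sums. Over all members Cpe, a carboxypeptidase of neuroendocrine and glial cells, fell by 1.93 ± 0.29 (log2, SE; adjusted p = 0.014, edgeR) and Ppap2b, a lipid phosphatase, fell by 2.19 ± 0.39 (adjusted p = 0.025). The next genes, Cst3 at -1.77 ± 0.36 (adjusted p = 0.064) and Mgp at -2.36 ± 0.51 (adjusted p = 0.091), did not pass. The genes nearest to passing on the higher side were Pcp4l1 at 0.96 ± 0.24 (adjusted p = 0.24), Apold1 at 1.27 ± 0.41 (adjusted p = 0.46), Atf3, Nr4a1 at 0.95 ± 0.32 (adjusted p = 0.47) and Fosb. With thinned cells Cst3, the cystatin C of glia, fell by 1.07 ± 0.19 (adjusted p = 0.0032) and Apoe, the main brain apolipoprotein, fell by 0.78 ± 0.21 (adjusted p = 0.042).

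Astrocyte and oligodendrocyte markers were lower in venous than in capillary sums of most libraries, with overlapping WT ranges. Over all members, the 8 astrocyte markers summed to 145 to 3362 CPM in WT and 117 to 293 CPM in KO venous cells, with 7 detected and Gfap at 0, and to 1361 to 6206 and 820 to 4402 CPM in capillary cells. The 7 oligodendrocyte markers, all detected, summed to 1202 to 2080.3 and 1699.7 to 2659.6 CPM in venous and to 1041 to 4445 and 1350.1 to 3662 CPM in capillary cells. In the 142 cells the astrocyte sums were 145 to 842 and 117 to 287 CPM, against 539 to 2160.3 and 539 to 1097 CPM in capillary cells, and WT1 was higher in venous cells. The oligodendrocyte sums were 1914, 2080.3 and 4105 CPM in WT and 2183, 1699.7 and 2645 CPM in KO venous cells. In capillary cells they were 3234, 6530.0 and 4051 CPM in WT and 3578, 2712 and 5143 CPM in KO, so that venous cells were lower in all libraries but WT3. Their part in the lower Cst3, Apoe and Cpe was not tested.

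**Figure D3:**
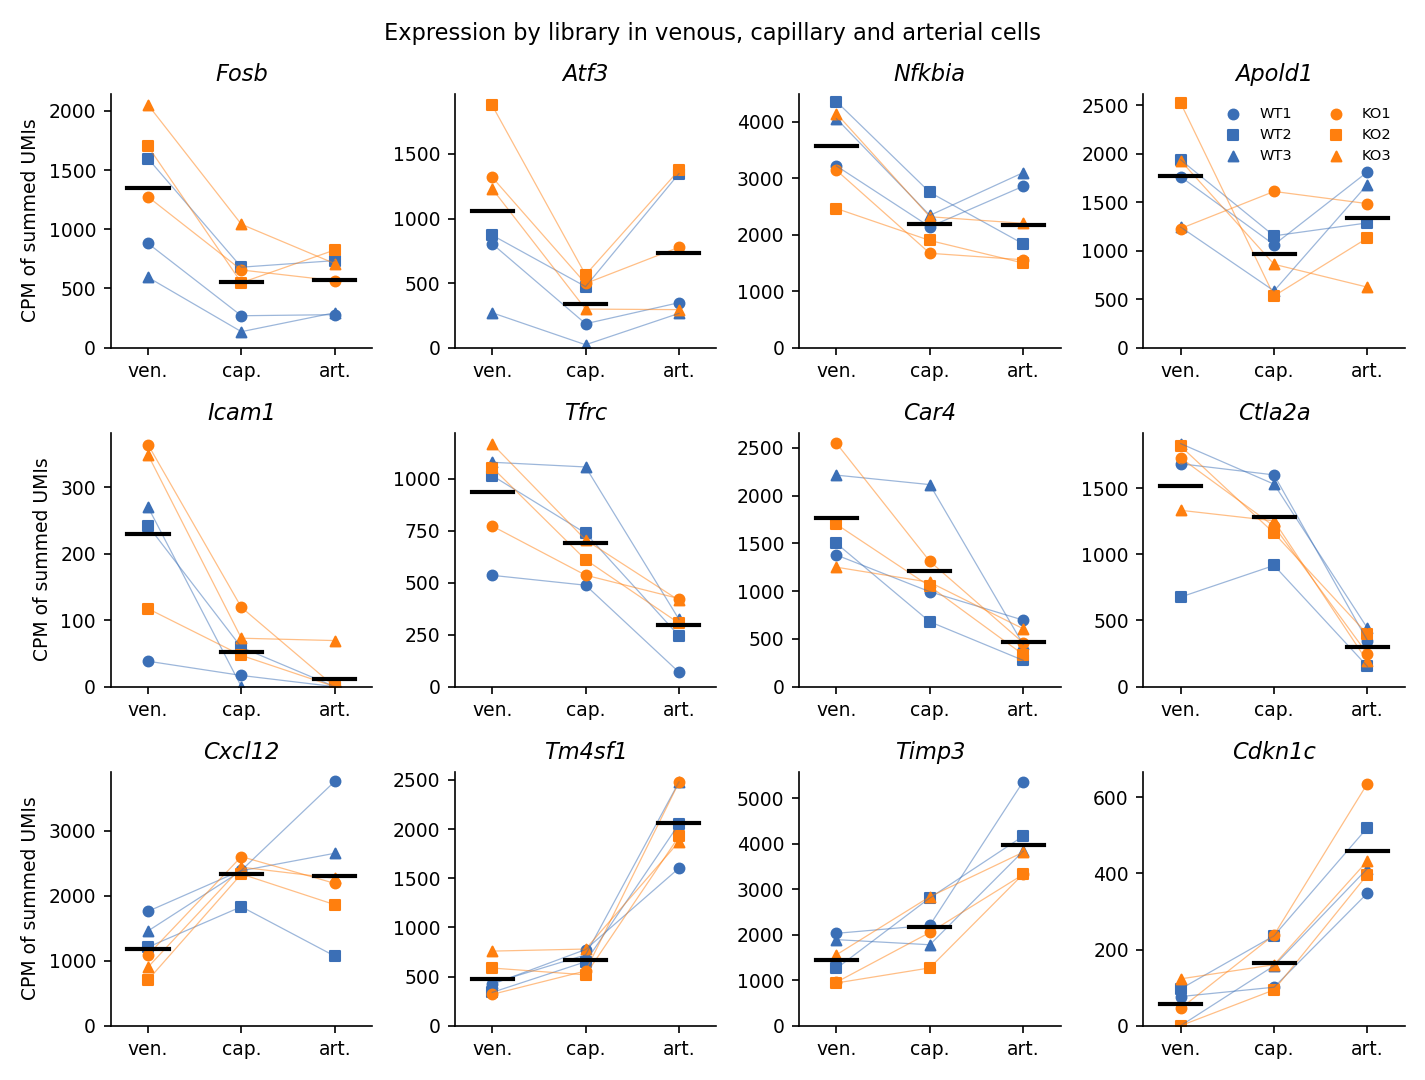
CPM of summed UMIs (y axes, linear from 0) of 12 genes in venous (142 cells), capillary (535) and arterial (201) cells, with 1 point per library, thin lines joining the classes of a library and black bars for the mean over 6 libraries. Cxcl12 is lower in venous than in capillary cells in each library, and Ctla2a, Tm4sf1 and Timp3 separate venous from arterial cells without overlap.

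Against arterial cells the venous cells had more Ctla2a and more of the capillary genes Car4 and Tfrc and less of the arterial genes Tm4sf1, Sox17, Edn3 and Cdkn1c. Venous cells had to lack UMIs of Sema3g, Bmx, Edn1 and Gkn3, and arterial cells had to hold at least 1. The rule itself thus favours lower values in venous cells for genes that go with these. Of 482 genes 7 were higher and 12 lower (3.94% called; edgeR with the library as a block), with a median log2 fold change of 0.06 over all of them. With members that held at least 1 Vwf UMI, 3 were called, all lower (0.64%).

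Ctla2a, a cysteine protease inhibitor, had 1684, 677 and 1836 CPM in WT and 1728, 1817 and 1333 CPM in KO venous cells. Its arterial values were 348, 153 and 442 CPM in WT and 247, 397 and 191 CPM in KO. The ranges did not overlap, and the log2 fold change over all members was 1.98 ± 0.28 (adjusted p = 0.001, edgeR). Car4, the carbonic anhydrase on the surface of capillary endothelium, had 1378, 1499.8 and 2215 CPM in WT and 2547, 1699.7 and 1251 CPM in KO venous cells. Arterial cells had 276 to 697 CPM, again with no overlap, and the log2 fold change was 1.53 ± 0.29 (adjusted p = 0.0051). Tfrc, the transferrin receptor that carries iron across the barrier, was higher by 1.30 ± 0.26 (adjusted p = 0.0078), and Net1, a RhoA exchange factor, by 1.38 ± 0.26 (adjusted p = 0.0051). Fosb was higher by 1.20 ± 0.21 (adjusted p = 0.0038). Rps26, of the small ribosomal subunit, and Arl4a, an ARF-like GTPase, had smaller increases of 0.91 ± 0.24 and 0.83 ± 0.22 (both adjusted p = 0.044).

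Capillary and barrier genes were not called between venous and capillary cells over all members, which does not show that they were equal. Over the 142 cells Ctla2a averaged 1513 ± 448 CPM in venous and 1279 ± 252 CPM in capillary cells, and Car4 1765 ± 510.5 and 1207 ± 489 CPM (SD, n = 6). Of 15 capillary genes, 13 were tested against capillary cells over all members and 0 passed, with a median log2 fold change of 0.25. Against arterial cells 11 were tested, Tfrc and Car4 rose and Cxcl12 fell. Of 25 barrier genes, 19 were tested against capillary cells with 0 passing and a median of 0.29. With 0 UMIs of other types, 4 capillary genes (Tfrc, Car4, Itih5 and Kdr) rose of 13 tested and 7 barrier genes, among them Slc2a1 and Abcb1a, of 18, where 61 of all 765 genes rose. That choice trimmed venous and capillary sums unequally, as given above. With thinned cells none passed, at a median of 0.08 for 8 barrier genes. Against arterial cells 15 barrier genes were tested and Sox17 alone passed, at a median of -0.04. Slc2a1, the glucose transporter of the barrier, averaged 3089.6 ± 811 CPM in venous, 2762 ± 568 in capillary and 2981 ± 797 in arterial cells. Mfsd2a, the lysolipid transporter that restrains transcytosis, averaged 342 ± 106, 363 ± 72.8 and 265 ± 78.1 CPM.

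Arterial genes were lower in venous cells, a direction that the rule itself favours. Tm4sf1, a tetraspanin-like membrane protein, had 421, 339 and 432 CPM in WT and 318, 586 and 759 CPM in KO venous cells. Arterial cells had 1602, 2051 and 2478 CPM in WT and 2474, 1925 and 1871 CPM in KO. The ranges did not overlap, and the log2 fold change over all members was -1.76 ± 0.32 (adjusted p = 0.0051, edgeR). Timp3, an inhibitor of matrix metalloproteinases, had 2029, 1258 and 1890.5 CPM in WT and 955, 938 and 1558 CPM in KO venous cells, against 3322 to 5363 CPM in arterial cells. It fell by 1.60 ± 0.21 (adjusted p = 0.00098). Cdkn1c, the cell cycle inhibitor p57, had 76.6, 96.8 and 0 CPM in WT and 45.5, 0 and 123 CPM in KO venous cells, against 348 to 636 CPM in arterial cells. It fell by 2.99 ± 0.49 (adjusted p = 0.0025).

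Of 21 arterial genes outside the rule 6 were tested, all 6 were negative, and Sox17, Tm4sf1 and Glul fell, with a median log2 fold change of -1.25 for the list against 0.06 over all 482 genes, of which 12 fell. Since arterial cells were chosen by arterial UMIs, this direction describes the rule in part and is not evidence for it. Sox17, the arterial transcription factor, fell by 1.21 ± 0.27 (adjusted p = 0.02) and Glul, glutamine synthetase, fell by 1.29 ± 0.27 (adjusted p = 0.0093). Mgp, the matrix Gla protein, was at -2.29 ± 0.63 and did not pass (adjusted p = 0.061). Edn3, endothelin 3, fell by 1.63 ± 0.30 (adjusted p = 0.0051), Epas1, the hypoxia factor HIF-2 alpha, fell by 1.12 ± 0.27 (adjusted p = 0.03) and Cxcl12 fell by 1.31 ± 0.27 (adjusted p = 0.0089). Tpm1, a tropomyosin, fell by 0.88 ± 0.21 (adjusted p = 0.03). With thinned cells 3 genes were higher and 6 lower of 89 (10.1%), and Timp3, Rgs5, Tm4sf1 and Glul were among those that passed, while Cxcl12 was at -0.61 ± 0.24 (adjusted p = 0.15) and Epas1 at -0.70 ± 0.30 (adjusted p = 0.17).

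Rgs5, a regulator of G protein signalling that defines pericytes, was lower in venous than in arterial cells and fell by 1.54 ± 0.24 (log2, SE; adjusted p = 0.002). The 6 pericyte markers include Rgs5, which was the highest of them in venous cells, so their sum is not independent of it. All 6 were detected in both classes, and they summed to 1186 to 2564 CPM in WT and 2238 to 4185 CPM in KO venous cells and to 5486 to 8512 and 4313 to 7118 CPM in arterial cells. Smooth muscle markers summed to 200.4 to 387 and 176 to 367 CPM in venous and to 796 to 1041 and 601 to 1191 CPM in arterial cells. The part of the other pericyte markers and of the smooth muscle markers in the lower Rgs5 and Tpm1 was not tested. Nor was the part of mural cell RNA in the other genes that fell against arterial cells, such as Timp3 and Epas1.

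**Figure D4:**
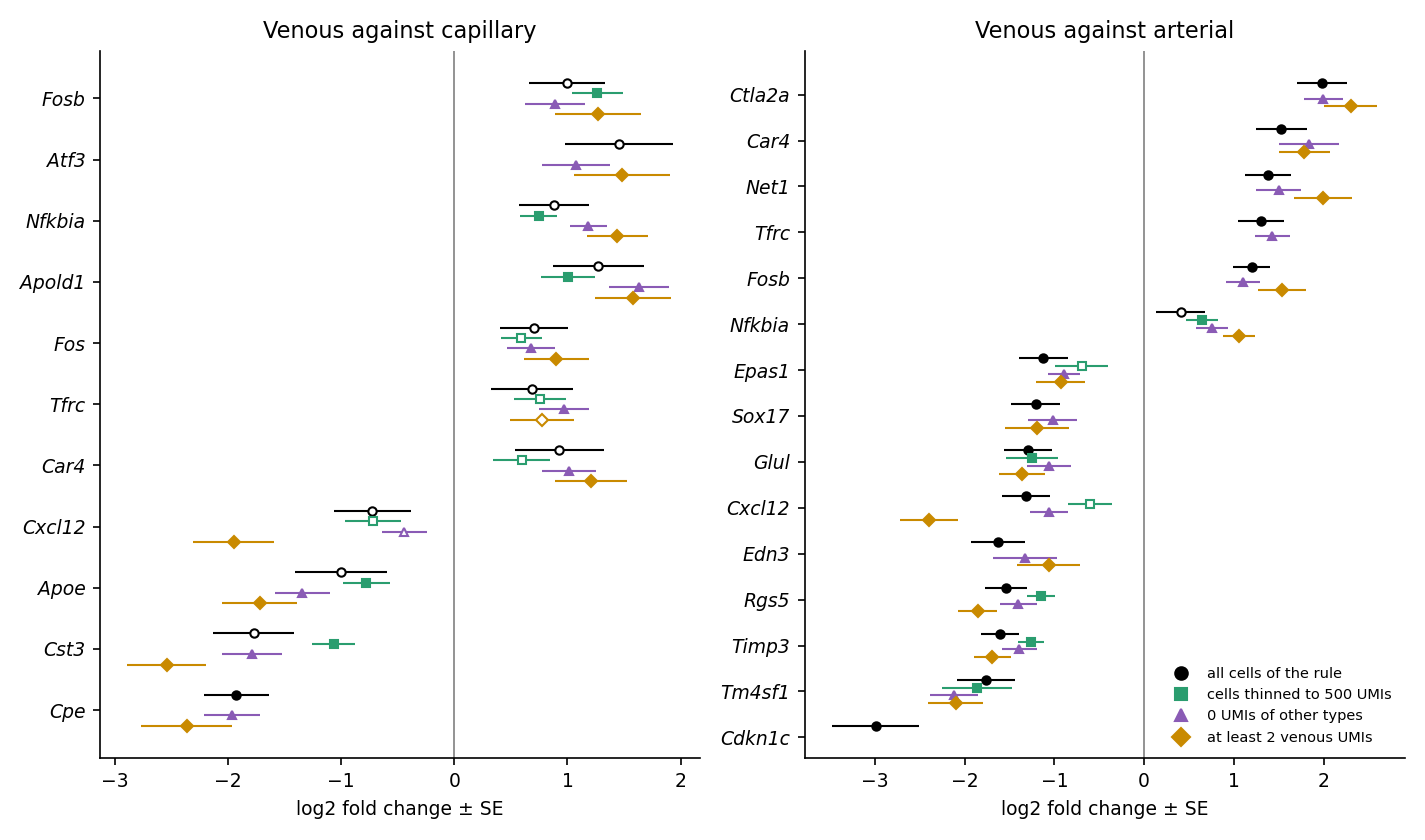
Log2 fold changes with their SE (x axes) of named genes in venous against capillary cells (left) and against arterial cells (right), for all cells of the rule and 3 other choices of cells. Filled symbols have an adjusted p below 0.05, and a missing symbol means that the gene did not pass the count filter. Early response genes lie to the right of 0 against capillary cells under each choice, and the arterial genes lie to the left under each choice.

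Among the members, Vwf-bearing and Slc38a5-bearing cells were compared, since both genes admitted about equal numbers. Cells with Vwf and no Slc38a5 numbered 40, and cells with Slc38a5 and no Vwf numbered 46. Of 55 genes that passed the filter 0 were called (0.0% called; edgeR), 6 had an unadjusted p below 0.05, and DESeq2 also called 0. The largest values on the Vwf side were Cst3 at a log2 fold change of 1.52 ± 0.61 and mt-Nd5, of respiratory complex I, at 1.30 ± 0.54. On the Slc38a5 side were Spock2, a testican of capillary endothelium, at -1.31 ± 0.48, Rgs5 at -1.46 ± 0.65 and Slco1c1, the thyroid hormone transporter of the barrier, at -1.19 ± 0.55. Their adjusted p was 0.37 to 0.38 (edgeR). All 3 tested capillary genes were negative, with a median of -1.19. KO1 had 1 cell with Vwf and no Slc38a5, so this comparison rested on few cells there. The large WT1 and WT3 cells were both on the Vwf side, and without cells under 0.3% endothelial UMIs Cst3 stood at 0.77 ± 0.37 and Spock2 at -0.79 ± 0.28.

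Loss of IDOL was compared with wild type within the venous cells. Of 528 genes 0 were called in either direction (0.0% called; edgeR), with 39 at an unadjusted p below 0.05. DESeq2 also called 0, with 25 at that level. Without WT2, 13 genes were higher and 66 lower (7.52%). The values below are therefore given without a direction of change.

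Kdr, the main receptor of VEGF, was nearest to passing on the higher side. It had 356, 194 and 77.3 CPM in WT and 955, 762 and 642 CPM in KO over all members, and 536, 194 and 324 CPM against 955, 762 and 718 CPM over the 142 cells. The groups did not overlap in either set, as for 11.6% of all genes tested in both sets. The log2 fold change was 1.62 ± 0.49 over all members (adjusted p = 0.36, edgeR) and 1.14 ± 0.39 over the 142 cells. Beyond Kdr came Vtn, vitronectin, at 1.28 ± 0.45, Tpt1, the translationally controlled tumour protein, at 1.18 ± 0.42, Sox17 at 1.34 ± 0.49 and Vwa1, of the extracellular matrix, at 1.16 ± 0.46 (adjusted p = 0.52 to 0.56).

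On the lower side, the values of Dbi and Mt1 changed when the large cells were left out. Dbi, the acyl-CoA binding protein of glia, had 913, 242 and 11406 CPM in WT and 227, 352 and 202 CPM in KO over all members. Over the 142 cells it had 230, 242 and 486 CPM against 227, 352 and 185 CPM. WT1 and above all WT3 moved between the sets, and the groups then overlapped. The metallothionein genes Mt1 and Mt2 had log2 fold changes of -2.53 ± 0.72 and -2.07 ± 0.59 over all members (adjusted p = 0.36, edgeR), and Mt1 was at 0.07 ± 0.34 over the 142 cells.

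For Eif5 and D4Wsu53e the genotypes did not overlap with and without those cells, as for 11.6% of all genes tested in both sets. Eif5, a translation initiation factor, had 306, 484 and 486 CPM in WT and 182, 117 and 164 CPM in KO over the 142 cells. D4Wsu53e had 1110.1, 726 and 756 CPM in WT and 364, 176 and 349 CPM in KO. For both genes the WT and KO values did not overlap. Over all members their log2 fold changes were -1.72 ± 0.50 and -1.54 ± 0.45 (adjusted p = 0.36, edgeR), and neither passed.

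Transcripts of receptors that IDOL marks were at the limit of detection. Vldlr had 0, 0 and 7 UMIs in WT and 0, 0 and 1 in KO, and all 7 WT3 UMIs were in the large cell. Lrp8, which encodes ApoER2, had 5, 0 and 2 UMIs in WT and 1, 2 and 3 in KO. IDOL acts on the receptor proteins, which were not measured. Apoe, their ligand, had 354, 32 and 398 UMIs in WT and 17, 18 and 135 in KO over all members, and 47, 32 and 18 against 17, 18 and 116 over the 142 cells. Its log2 fold change was -2.15 ± 0.64 over all members (adjusted p = 0.36, edgeR) and 0.04 ± 0.37 over the 142 cells. Of 18 genes of cholesterol synthesis none passed the count filter in venous cells.

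No gene of the lists was called between genotypes, where the median over all genes tested was -0.02. Of 16 early response genes tested 8 were positive and 8 negative, with a median of -0.04. Of 9 tested genes of angiogenic signalling 8 were positive, with a median of 0.61, and of 15 barrier genes 11 were positive, with a median of 0.20. Over the 142 cells 6 of 9 angiogenic genes were positive, at a median of 0.10. There the barrier genes turned round, with 2 of 12 positive and a median of -0.33, against 0.03 over all genes. The 25 barrier genes summed to 27868, 26076 and 28411 CPM in WT and 23379.6, 19869 and 22265 CPM in KO over the 142 cells, with every KO value below every WT value. Of the single genes tested in that set, 11.6% also did not overlap, and no share was computed for sums of lists. Over all members the barrier genes summed to 16589, 26076 and 8339 CPM in WT and 23379.6, 19869 and 20323 CPM in KO, which overlapped. Haemoglobin transcripts differed between libraries rather than groups, since 2 WT1 members held 425 and 415 haemoglobin UMIs. mt-Nd3, of complex I, had 0 UMIs in each WT library and 7, 4 and 1 in KO, and 7, 4 and 0 over the 142 cells, where the groups overlapped.

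Whether the genotype difference of venous cells departed from that of capillary cells was tested directly. Of 1496 genes 0 were called (0.0% called; edgeR interaction of genotype and class), with 32 at an unadjusted p below 0.05, and DESeq2 called 0 with 13. Without WT3 the count was 3 (0.176%). The smallest p on the higher side belonged to Arhgap31, a Cdc42 and Rac GTPase-activating protein, with a difference of log2 fold changes of 2.12 ± 0.67 (adjusted p = 0.98). It had 4, 4 and 3 UMIs in WT and 6, 6 and 18 in KO venous cells, so counts were few. Of 17 early response genes tested 15 were negative, with a median of -0.95 against -0.04 over all genes, and with thinned cells 9 of 15 were negative, with a median of -0.10. Junb, an AP-1 subunit, stood among the lowest values at -1.70 ± 0.60 (adjusted p = 0.98), and at -0.40 ± 0.40 over cells with at least 0.3% endothelial UMIs.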

How the data were processed

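Single cells of 6 hypothalamus libraries were measured by Drop-seq. The authors deposited raw UMI counts per gene and cell. Per the submitters' processing notes bcl2fastq, STAR 2.5.0c and the builds mm10 and GRCm38 were used; the counting program is not given in the sources used here. Libraries held 1670993 to 4068886 UMIs. Cells were classed by the rule given in the report, and UMIs were summed per library and class, so counting error is largest for genes with few UMIs. Sums were tested with edgeR 4.0.16 in R 4.3.3 (filterByExpr, TMM, quasi-likelihood F test, Benjamini-Hochberg over all genes tested without the 19 rule genes), with the library as a block between classes and without it between genotypes. Calls had an adjusted p below 0.05. DESeq2 1.42.0 was an alternative, and the edgeR script was tested on simulated data. Shares were compared by exact permutation with scipy 1.17.1. Doublets were called with Scrublet in scanpy 1.11.5 (116 cells) and removed only as an alternative. Of 18204 gene symbols 93.9% matched the annotation.

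Named genes were, per comparison, the 10 of smallest p in each direction among those called whose direction was the same in at least 5 of 6 libraries (between genotypes, whose groups did not overlap). Where fewer than 5 passed in a direction, the 5 of smallest p were given as values. Tested members of the gene lists could be named, and Mylip, Vldlr, Lrp8 and Apoe always were. A few genes that met the rule are not reported here. Genes at the adhesion and venous level given over the 142 cells were chosen after their values were seen. The members and lists were chosen with earlier results of these data known. The set of cells with at least 0.3% endothelial UMIs was added after the data were seen. The alternatives were other cell filters, no gene filter, DESeq2, thinning, doublet removal, stricter venous rules and leaving out each library.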

Additional observations from a re-analysis of the deposited data

Results flagged for a closer look

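For 7 class differences of named genes, every WT library lay on one side and every KO library on the other. All named genes were looked at against capillary and against arterial cells. No share over all genes was computed, so the count of 7 is not a result in itself. Against capillary cells, the mean venous difference of Arhgap31 was -62.0 CPM in WT and 211.1 CPM in KO. That of Fam63b was -65.3 CPM in WT and 153.9 CPM in KO, and that of Ube3a -50.5 CPM and 204.7 CPM. D4Wsu53e went the other way, at 233.9 CPM in WT and -139.9 CPM in KO. The interaction of genotype and class was tested for these 4 genes over all members with edgeR and none passed. Against arterial cells, Arhgap31 stood at -83.2 CPM in WT and 86.7 CPM in KO, Cpe at 316.9 and -63.2 CPM, and Eif5 at 161.2 and -59.4 CPM. The difference between genotypes was not tested for these 3. The genes had been named for their small p in a related comparison of the same libraries, so these patterns are not independent of that choice.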

How the results depend on the processing

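There were 145 venous cells, 98 of them with 1 venous UMI, and 3 cells held 35.3% of their UMIs. Against capillary cells (3 calls over all members) the count was 11 with DESeq2, 69 with no gene filter, 112 with 0 UMIs of other types, 8 with thinned cells, 54 with at least 2 venous UMIs and 0 without doublets or with no replicate block. With choices added after seeing the data it was 28 with at least 0.3% endothelial UMIs, and with no gene filter besides 57, or 43 with thinned cells. Leaving out a library gave 0 to 137, the latter without WT3. Against arterial cells (19 calls) it was 107 with no gene filter, 9 with thinned cells, 38 with at least 2 venous UMIs, 3 with at least 1 Vwf UMI and 44, 49 and 8 with the added choices in the same order. Leaving out a library gave 11 to 23. Between genotypes (0 calls) it was 186 with no gene filter, and 5 and 2 with no gene filter and at least 0.3% endothelial UMIs or thinned cells. Leaving out a library gave 0 to 79, the latter without WT2. For the interaction (0 calls) it was 1 with no gene filter or at least 500 genes per cell, 2 with 0 UMIs of other types, with thinned cells or with at least 2 venous UMIs, and 4, 5 and 4 with the added choices. Leaving out a library gave 0 to 3, the latter without WT3. The Vwf against Slc38a5 comparison gave 0 throughout. The causes were not tested.

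Same-numbered libraries had correlations of 0.00228, 0.166 and 0.114 in their deviations from the group means. Different-numbered libraries had -0.148, 0.171, 0.0330, -0.231, -0.0344 and -0.0643. The numbers were not taken as pairs because the labels do not state that they are. With the replicate number as a block between genotypes 4 genes were called, 1 higher and 3 lower.

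The KO minus WT difference in the share of endothelial cells ranged from -6.19 to -2.78 percentage points when a library was left out. The difference in the share of passing cells ranged from -0.323 to 0.173, the latter without KO2, and was 0.00155 with at least 1 Vwf UMI. With no gene filter and at least 0.3% endothelial UMIs or thinned cells, the log2 fold change against capillary cells turned to -0.01 and -0.17 for Pcp4l1, and on the Vwf side to -0.15 and -0.05 for Fth1, -0.03 and -0.06 for Hsp90ab1 and -0.10 and -0.48 for Dusp1. Tfrc turned to -0.25 against capillary cells with at least 1 Vwf UMI. Between genotypes Mt1 turned to 0.07 over the 142 cells and 0.16 with no gene filter besides, where Mt2 stood at 0.23. The interaction of Slc1a3 turned to 1.57 with at least 2 venous UMIs.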
